A study of Mus musculus with 3 samples.

Results

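Ahnak encodes a giant scaffold protein that lies under the plasma membrane and in the cytoplasm, and most of its coding sequence sits in a single exon made largely of repeats. Of the 19301 m6A sites listed for the mouse macrophage line RAW264.7, 67 lay inside the Ahnak gene on its own strand. Ahnak was chosen by this number of listed sites, the highest of any gene, so the count and the density of sites below are given as a description. The sites were selected on the position of the gene in GENCODE M21 (GRCm38, chr19:8989284-9076914, plus strand) and placed on the transcript with the longest coding sequence (CDS), Ahnak-202. No other annotated gene overlapped this span on either strand.

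The sites came from miCLIP2, in which an antibody against m6A is crosslinked to poly(A)+ RNA and the crosslinked base is read from where reverse transcription stops, or from a C-to-T change beside it. The 3 samples were biological replicates of untreated RAW264.7 cells, an established macrophage line, and no other condition was part of the data. The series description calls the line human, while the organism label is mouse. The replicates were merged by the authors into 1 list that carries a prediction score for each site and neither read counts nor a value per replicate, so no test across replicates could be made, depth at a site is unknown, and an A that is not listed was not necessarily unmodified.

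N6-methyladenosine is the commonest internal mark of mRNA. It is placed by the METTL3-METTL14 complex at A in the motif DRACH, where D is A, G or T, R is A or G, and H is A, C or T, and it is known to collect near stop codons and in long internal exons. The AHNAK protein is known as a partner of the S100A10 and annexin A2 complex and of calcium channel subunits. The score comes from m6Aboost, a model that reads the 21 nt around the A, the region of the transcript, the strength of the miCLIP2 peak relative to the other peaks of the gene, and the C-to-T changes. It describes the call, not the share of methylated molecules.

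The spliced Ahnak-202 transcript measured 18100 nt in 5 exons, with a CDS of 16968 nt or 5656 codons. Exon 5 alone measured 17498 nt (chr19:9001699-9019196) and held 16623 nt of the CDS together with the 3′ UTR. All 67 sites lay in exon 5, as did 395 of the 409 DRACH A of the transcript (96.6%). The 4 exons before it, 602 nt in all, held 14 DRACH A and no site, a number too small to tell from the 15.9% listed over the transcript or the 4.71% listed over all coding transcripts with a site. Of the 67 sites, 65 (97.0%, 95% Wilson interval 89.8 to 99.2) lay within the CDS, and the other 2 within the 3′ UTR. The CDS held 95.6% of the DRACH A (391 of 409), a share within the interval of the sites. The intervals given here cover counting error only, since sites of 1 transcript are not replicates. Of the 4 other annotated Ahnak transcripts, Ahnak-203 contained 3 of the 67 positions in its exons and Ahnak-201, Ahnak-204 and Ahnak-205 contained 0.

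**Figure D1:**
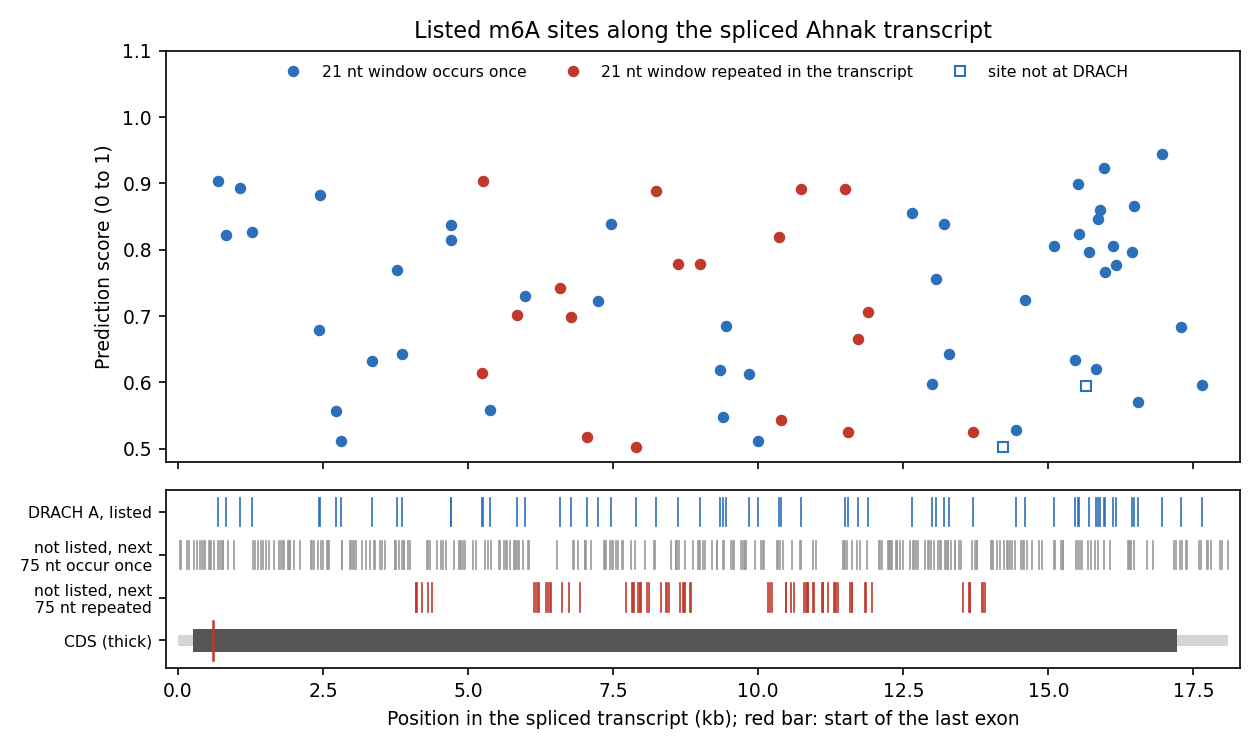
Upper panel: prediction score (0 to 1) of each of the 67 sites against its position in the spliced Ahnak transcript (kb), in red where the 21 nt window around the site occurs more than once in the transcript. Lower panel: every DRACH A, by whether it is listed and whether the 75 nt after it occur once in the transcript, above the CDS; the 72 A whose next 75 nt are repeated hold no site, while sites lie on both sides of each such block.

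The sequences shown here are copies of a coding repeat, taken from the repeated 21 nt window with the most listed copies. The 21 nt window around a GGACA occurred 14 times in the Ahnak CDS without a difference, and 9 of the copies were listed. Below, 63 nt of 6 copies are shown, from 10 nt before the A to 52 nt after it, on the plus strand of chromosome 19 and with the DRACH motif in capitals, because the copies are the same within the 21 nt that the model reads and differ outside it.

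Copy at 9006350, listed: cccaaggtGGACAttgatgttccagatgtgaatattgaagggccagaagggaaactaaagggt
Copy at 9009335, listed: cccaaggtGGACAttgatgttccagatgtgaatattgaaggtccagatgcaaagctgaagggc
Copy at 9012599, listed: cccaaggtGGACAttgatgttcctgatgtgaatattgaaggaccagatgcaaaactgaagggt
Copy at 9005216, not listed: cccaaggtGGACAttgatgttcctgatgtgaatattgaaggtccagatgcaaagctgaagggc
Copy at 9012221, not listed: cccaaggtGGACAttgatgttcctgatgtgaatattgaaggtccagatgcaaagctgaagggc
Copy at 9015137, not listed: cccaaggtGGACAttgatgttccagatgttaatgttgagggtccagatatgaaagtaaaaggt

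The copies at 9005216 and 9012221 were identical over the whole stretch shown. All 14 copies were read in the same frame, with the A at codon position 2, and all 13 spacings between neighbouring copies were multiples of 3 nt. The commonest spacing, seen 6 times, was 384 nt or 128 codons, and 378 nt or 126 codons was seen 2 times.

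The 9 listed copies shared their 21 nt and their region, so these inputs of the model were the same for each. Their scores nevertheless ran from 0.518 at 9008144 to 0.903 at 9006350, with a median of 0.820. The other 7 scored 0.889 at 9009335, 0.778 at both 9009713 and 9010097, 0.820 at 9011453, 0.891 at both 9011837 and 9012599, and 0.706 at 9012983. Most copies were therefore well above the deposited minimum score of 0.5, and a single copy lay close to it.

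The copies were next compared by how many nt after the A had to be read before the sequence occurred once in the transcript. This count was used because a truncated miCLIP2 read starts at the base after the A, and the authors kept only reads that mapped to a single place. The 9 listed copies needed between 31 and 52 nt. Of the 5 copies that were not listed, those at 9005216 and 9012221 needed 190 nt, those at 9008951 and 9014753 needed 88 nt, and the copy at 9015137 needed 19 nt. So 4 of the 5 unlisted copies could not be told from another copy within 75 nt, the number of cycles in the sequencing kit, and 9 of the 10 copies that could be told apart were listed. The copy at 9015137 was the exception. This window held the most listed copies of the 22 windows with 3 or more copies. Its high listed share is therefore a description and does not stand for repeated windows in general. A GGACC window of the same repeat, described below, also had 14 copies, of which 10 could be told apart, and only 1 was listed.

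**Figure D2:**
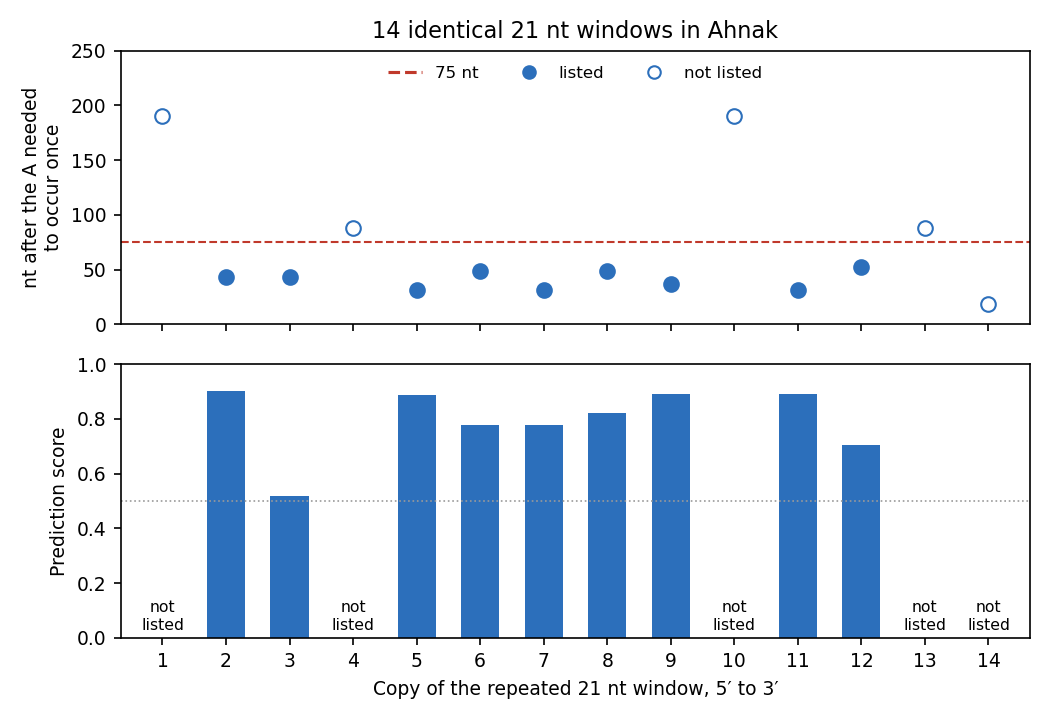
The 14 identical 21 nt windows of Ahnak, ordered 5′ to 3′. Upper panel: nt after the A needed before the sequence occurs once in the transcript, with a dashed line at 75 nt; lower panel: prediction score, with a dotted line at 0.5. The 9 listed copies (filled) lie between 31 and 52 nt, and 4 of the 5 unlisted copies (open) lie at 88 or 190 nt.

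Over the whole transcript, the absence of sites beyond 75 nt was seen again, but most A without a site could be placed within 75 nt. Ahnak-202 contained 409 DRACH A, of which 65 were listed. For 72 of them (17.6%, 14.2 to 21.6) the next 75 nt occurred more than once in the transcript, and of these 72, 0 were listed (Wilson interval 0 to 5.07%). A different limit, 3 counts out of the 72 A, would give 4.17%, so the Wilson limit is the wider one. Of the other 337, 65 were listed (19.3%, 15.4 to 23.8). The 75 nt are the cycles of the kit and not the exact length of the reads, and with 77 nt in their place 70 A were repeated, of which 0 were listed. The repeated stretches lay between 9005189 and 9015011, and 34 sites fell between these bounds. Among A whose next 75 nt occurred once, 34 of 175 were listed within the bounds (19.4%, 14.2 to 25.9) and 31 of 162 outside them (19.1%, 13.8 to 25.9). Among A that could be placed within 75 nt, the shares inside and outside the repeated region were thus close.

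By steps of this measure, 47 of 275 A that needed 1 to 30 nt were listed (17.1%, 13.1 to 22.0), 14 of 32 that needed 31 to 50 nt (43.8%, 28.2 to 60.7), and 4 of 29 that needed 51 to 75 nt (13.8%, 5.50 to 30.6). The site that needed the most, the AAACT at 9011496, needed 63 nt. The longest requirement of any DRACH A was 274 nt, and 1 A at the transcript end had no unique run after it. The listed share did not fall step by step. It was highest in the group that held 8 of the 9 listed GGACA copies, and it was 0 beyond 75 nt.

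**Figure D3:**
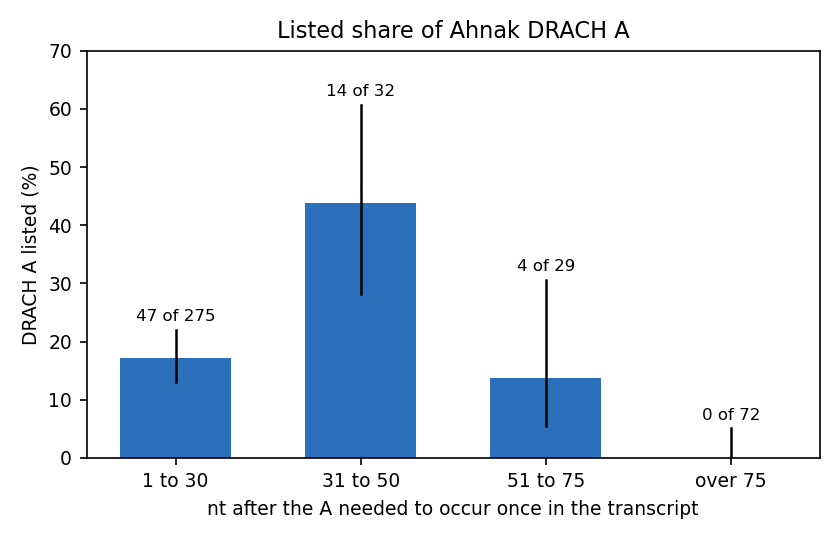
Share of Ahnak DRACH A that were listed (%), by the nt after the A needed to occur once in the transcript. Lines are 95% Wilson intervals, and the counts above them show 0 of 72 listed where more than 75 nt were needed.

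Exact copies were searched on both strands of the GRCm38 chromosomes for 394 of the 395 DRACH A in exon 5, and no 75 nt window matched outside the Ahnak transcript. Only exact matches were counted, while the authors allowed some mismatches in mapping. In 20 other genes with a site, 99 DRACH A had a repeated next 75 nt and 0 of these 99 were listed (0 to 3.74%), against the background of 4.71%, a smaller contrast than within Ahnak. The other 4875 coding transcripts with a site held no such A. Mki67, a marker of proliferating cells with a repeated coding exon of its own, had 8 of 345, and Ahnak had the most of any. Whether mapping accounts for the unlisted copies was not tested beyond these counts, since the reads were not part of the data.

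Within the same repeat, neighbouring motifs were listed unequally. A GGACC stood 11 nt before each of the 14 GGACA, and for 13 of them it lay in a single 21 nt window, the exception being the GGACA at 9015137. That GGACC window occurred 14 times in all, since the copy at 9013350 was not followed by the GGACA window. For 10 of the 14 the next 75 nt occurred once, and the GGACC at 9006339 was the only copy listed (score 0.614), beside the GGACA with the highest score of the set. Away from these 14 pairs, 10 of 43 GGACC and 12 of 41 GGACA were listed. The windows were:

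GGACC of the repeat, listed in 1 of 14 copies: atgtctcaGGACCcaaggtgg
GGACA of the repeat, listed in 9 of 14 copies: cccaaggtGGACAttgatgtt
GGACA of a variant of that window, listed in 2 of 8 copies: cccaaagtGGACAttgatgtt
GGACT of a shorter repeat, listed in 2 of 4 copies: cctgatgtGGACTtgcatctg
AAACT of the repeat, listed in 3 of 3 copies: cagatgcaAAACTgaagggcc

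The variant GGACA window occurred 8 times. Its 2 listed copies, at 9006935 (score 0.701) and 9012821 (0.665), needed 16 and 44 nt. Of the 6 that were not listed, 5 needed between 94 and 118 nt and the copy at 9011675 needed 58 nt. The GGACT window occurred 4 times at a spacing of 201 nt, which is a different repeat from the one above. The copies at 9007271 and 9007472 needed 232 nt and were not listed, while those at 9007673 and 9007874 needed 31 and 52 nt and scored 0.743 and 0.698. In both sets the copies without a site were mostly those that needed more than 75 nt.

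The AAACT window was listed in all 3 copies, and all 3 lay near the minimum score, with 0.502 at 9008994, 0.525 at 9014796 and 0.544 at 9011496. A further listed AAACT, at 9012642 (0.525), lay in a window with 2 copies, of which it was the only copy listed. The same motif with nearly the same bases around it also stood at transcript positions 8660, 9044 and 10784. None of these was listed, although the A at 9044 needed only 27 nt, while those at 8660 and 10784 needed 112 nt. The full count of the 3 copies therefore holds for the exact 21 nt window only. Repeated windows therefore gave both some of the highest and the lowest scores of the transcript. In all, 22 windows of 21 nt around a DRACH A occurred 3 or more times, with 125 copies, each window in a single codon position. Sites were listed in 5 of the 22 windows, at 17 of the 125 copies. The 17 windows without a site had 82 copies, of which 46 had a repeated next 75 nt. They included 4 windows around TGACA and 2 around GGACA. Over the whole list, 5 groups of 3 or more sites on 1 strand within 100 kb shared the same 21 nt. The 9 copies in Ahnak were the largest such group, and the next largest had 4.

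Sites at the motif were counted next. Of the 67 sites, 65 (97.0%, 89.8 to 99.2) were at DRACH. The other 2 were a GTACT at 9015316 with a score of 0.503 and a GGATT at 9016741 with 0.595. Their 21 nt windows, with the 5 bases centred on the A in capitals, are shown with those of the site of highest score, the first site and the pair in the 3′ UTR:

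GTACT at 9015316: gattgaagGTACTctcaaagg
GGATT at 9016741: aatgtcagGGATTgatgccac
Highest score, 9018064: cccaactgGGACTttggagtt
First site, 9001781: gtagaaggGGACCttggggag
3′ UTR, 9018390: ttgtatatAAACTccaaagag
3′ UTR and last site, 9018750: cattgtaaTGACTttgggggc

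GGACA was the most frequent motif of the Ahnak sites, with 21 of 67 (31.3%, 21.5 to 43.2), against 13.2% of the whole list. GGACT, the most frequent motif of the list at 19.4%, was found at 9 Ahnak sites (13.4%, 7.23 to 23.6). GGACC was found at 11 (16.4%, 9.42 to 27.1), AAACT at 10 (14.9%, 8.31 to 25.3), GAACT at 6 and TGACT at 4. The order of motifs in Ahnak thus differed from that of the list, where GGACT came first. No test was made, since the sites of repeats are copies of each other.

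The transcript also contained the motifs in unequal numbers. In the CDS, Ahnak had 55 GGACA, 56 GGACC and 58 TGACA but 17 GGACT. Of the GGACT, 9 of 17 were listed (52.9%), of the GAACT 6 of 11 (54.5%, 28.0 to 78.7), of the GGACA 21 of 55 (38.2%, 26.5 to 51.4), of the AAACT 9 of 39 (23.1%, 12.6 to 38.3) and of the GGACC 11 of 56 (19.6%, 11.3 to 31.8). So by share, GGACT and GAACT stood first in Ahnak as they did in other genes, where 16.4% and 11.8% of the CDS motifs were listed. The TGACA were almost all unlisted, with 1 of 58 (1.72%, 0.305 to 9.14), and in other genes 1.09% were listed. The 24 GAACA and 21 TGACC of the CDS held no site, and in other genes 2.37% and 0.292% of these were listed. The next 75 nt occurred once for 16 of the 24 GAACA and for 16 of the 21 TGACC. Of the AGACT, 1 of 24 was listed in Ahnak (4.17%, 0.739 to 20.2), against 10.0% in other genes, and 9 of these 24 had a repeated next 75 nt. Of the TAACA, 1 of 9 was listed (11.1%, 1.99 to 43.5), against 0.206% in other genes.

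Over the transcript, 15.9% of the DRACH A were listed (65 of 409, 12.7 to 19.8), and in the CDS 16.1% (63 of 391, 12.8 to 20.1). The background over all coding transcripts with a site, 1 for each gene, was 4.71%, for the CDS alone 4.64%, for the 3′ UTR 5.05%, for CDS in exons of 1000 nt or more 11.6%, and for the 349 genes with 10 or more sites 10.9%. Ahnak was chosen for its number of sites, so nothing is read from its place above these values. RNA abundance also sets how many sites can be called, and the list holds no expression values.

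Scores in Ahnak were close to those of the list. The median was 0.730 (quartiles 0.613 and 0.832), against 0.734 (0.627 and 0.832) over all 19301 sites. Among CDS sites at DRACH, the median was 0.756 in Ahnak and 0.708 in other genes (8980 sites). The GGACA sites of Ahnak had a median of 0.820 against 0.711 in other genes, and the GGACC sites 0.770 against 0.671. The AAACT sites went the other way, with 0.544 against 0.740. Copies weigh on these medians. Of the 9 AAACT sites, those at 9008994, 9011496, 9012642 and 9014796 came from nearly the same repeated window, with scores from 0.502 to 0.544. Of the 21 GGACA sites, 9 were copies of 1 window. The highest scores were 0.945 for the GGACT at 9018064, 0.923 for the GGACT at 9017051, 0.904 for the GGACC at 9001781, 0.903 for the GGACA at 9006350 and 0.899 for the GAACT at 9016607. The lowest were 0.502 for the AAACT at 9008994, 0.503 for the GTACT at 9015316 and 0.512 for the GAACT at both 9003909 and 9011085. These lowest sites lay just inside the minimum score, and sites below it were not part of the list. In all, 4 sites scored 0.9 or more and 10 scored below 0.55.

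Sites were spread along the whole giant exon. The first, at 9001781, lay at position 83 of exon 5, and the last, at 9018750, lay 429 nt past the last coding base. Each of the 18 complete 1 kb stretches of the transcript held at least 1 site, with a median of 3.00 and a maximum of 11. With the CDS cut into 3 stretches of 5656 nt, 17 sites fell in the first, 20 in the second and 28 in the last. In terms of DRACH A, 17 of 124 were listed in the first stretch (13.7%, 8.74 to 20.9), 20 of 141 in the second (14.2%, 9.37 to 20.9) and 26 of 126 in the last (20.6%, 14.5 to 28.5), and these intervals overlapped. The second stretch held 53 of the 72 A with a repeated next 75 nt. Without these A, 17 of 118 (14.4%, 9.19 to 21.9), 20 of 88 (22.7%, 15.2 to 32.5) and 26 of 113 (16.2 to 31.6) were listed, so that the second stretch came level with the last.

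**Figure D4:**
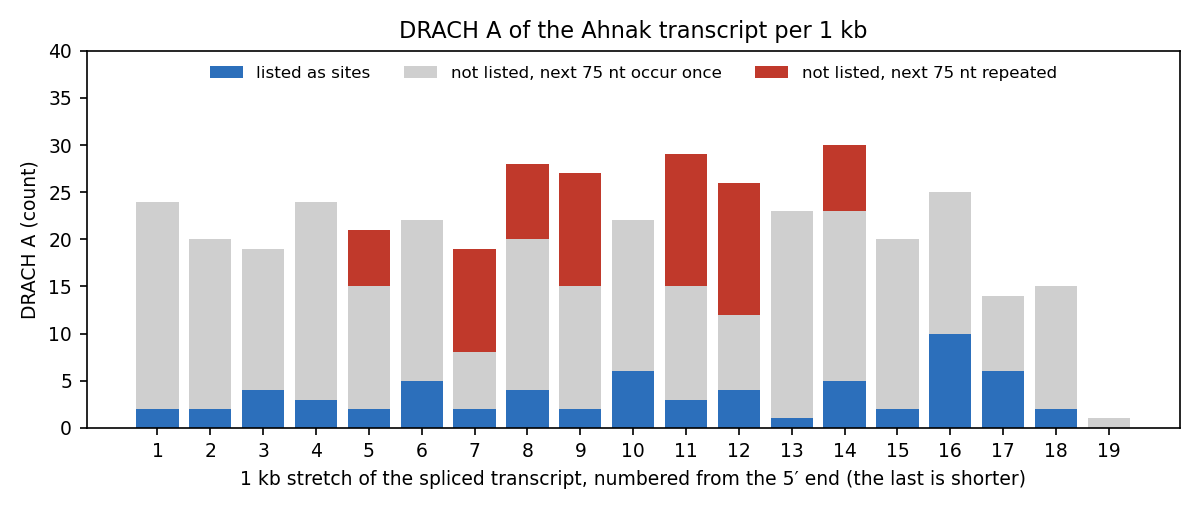
Number of DRACH A in each 1 kb stretch of the spliced Ahnak transcript, split into those listed (blue), those not listed whose next 75 nt occur once (grey) and those not listed whose next 75 nt are repeated (red). Stretch 16 holds the most listed DRACH A, 10 of 25, and no repeated window.

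The densest part of the transcript lay outside the repeats, near the end of the CDS. Here 13 sites fell within 986 nt (chr19:9016550-9017535), and 12 of them were among the 26 DRACH A of this stretch. None of these 26 had a repeated 21 nt window. The 13 scores ranged from 0.595 to 0.923 with a median of 0.797. In order, they were the AGACT at 9016550 (0.634), the GAACT at 9016607 (0.899), the GGACC at 9016617 (0.824), the GGATT at 9016741 (0.595), the GGACC at 9016794 (0.796), the AAACT at 9016914 (0.620), the GGACA at 9016955 (0.847), the GAACT at 9016989 (0.860), the GGACT at 9017051 (0.923), the GGACC at 9017067 (0.766), the AAACT at 9017208 (0.806), the GGACT at 9017265 (0.777) and the GGACC at 9017535 (0.797). The group mixed 7 motifs and ended 786 nt before the last coding base, so it was not centred on the stop codon. Within 200 nt of the last coding base there were 7 DRACH A and a single site, the AAACT at 9018390 (0.684), 69 nt past it in the 3′ UTR. The site of highest score, at 9018064, lay 257 nt before that base.

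Neighbouring sites were a median of 198 nt apart, between 10 and 1155 nt. Of the 67 sites, 36 (53.7%, 41.9 to 65.1) had another within 100 nt, and 5 pairs lay within 20 nt. The widest gap ran from 9002376 to 9003531. It contained 23 DRACH A, all of them with a next 75 nt that occurred once, so this gap did not lie in repeated sequence.

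The repeats keep the reading frame, and the motifs fell unevenly on codons. Of the 391 DRACH A in the CDS, 254 (65.0%, 60.1 to 69.5) were at codon position 2, against 49.9% in other genes. Of the 65 CDS sites, 7 were at position 1, 32 at position 2 and 26 at position 3. The listed share was 5 of 45 at position 1 (11.1%, 4.84 to 23.5), 32 of 254 at position 2 (12.6%, 9.07 to 17.2) and 28.3% (26 of 92, 20.1 to 38.2) at position 3. In other genes the range was narrow, with 4.08%, 4.54% and 5.44%. The motif and the codon position moved together in Ahnak. Of the GGACA in the CDS, 53 of 55 were at position 2, of the GGACC 46 of 56 at position 3 and of the AAACT 31 of 39 at position 3. These shares also keep the A whose next 75 nt are repeated, none of which was listed. In the 22 windows with 3 or more copies, such A were all at position 2, apart from 4 GGACC at position 3. The part of the motifs and of repeated sequence in the difference was not tested.

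Ahnak was then set beside the other genes with most sites. Plec, which encodes the cytoskeletal linker plectin, had 66 sites, Rnf213, a giant E3 ubiquitin ligase, 43, Mki67 38 and Spen, a transcriptional repressor, 37. On exons of the longest-CDS transcript, Ahnak had 3.70 sites per kb, Plec 4.14, Mki67 3.78, Spen 2.76 and Rnf213 2.57. By density Ahnak ranked 79 among the 349 genes with 10 or more sites, whose median was 2.59 per kb (quartiles 1.95 and 3.58), and by transcript length it ranked 3 among them. Its leading count thus came with a long transcript and a density just above the upper quartile. In share of DRACH A listed, Plec had 21.2% (16.7 to 26.5), Spen 11.8% (8.49 to 16.2), Mki67 38 of 345 (8.13 to 14.8) and Rnf213 9.18% (6.71 to 12.5), beside the 15.9% of Ahnak.

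**Figure D5:**
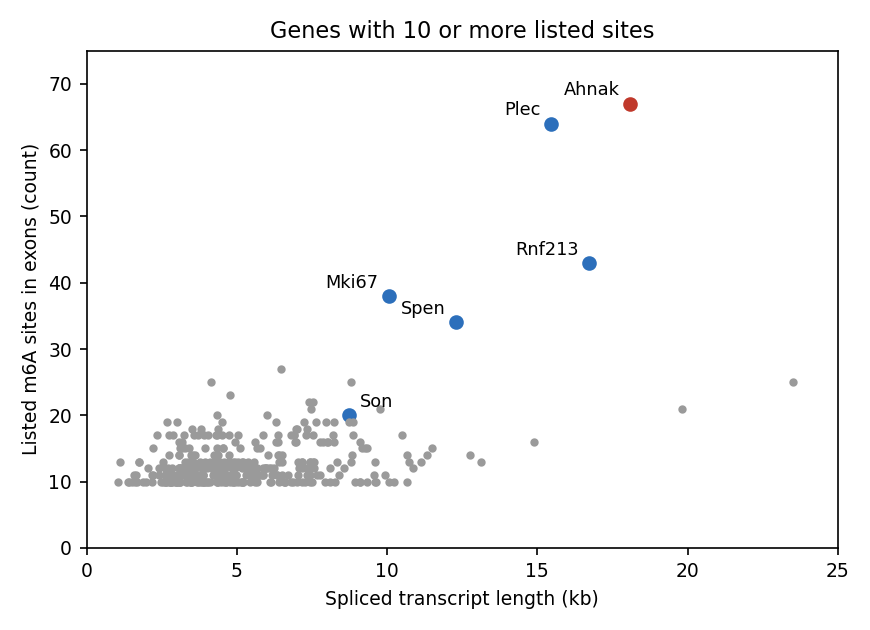
Number of listed sites in exons against the length of the spliced transcript (kb) for the 349 genes with 10 or more sites, each point 1 gene on its longest-CDS transcript. Ahnak (red, 67 sites) and Plec (64 in exons) lie above all others, and 2 longer transcripts have fewer sites.

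The layout of Ahnak, with many sites in a single coding exon, was most alike in Plec (49 sites in an exon of 7412 nt), Mki67 (29 in 6836 nt), Rnf213 (24 in 3603 nt), Spen (21 in 8020 nt) and Son (20 in 5970 nt), which encodes a splicing factor of nuclear speckles. The likeness was measured as the number of sites in 1 coding exon, where Ahnak had 65 in the CDS of exon 5. Per kb of the coding part of that exon, Plec had 7.89 CDS sites, Rnf213 6.66, Mki67 4.24, Ahnak 3.91, Son 3.35 and Spen 2.62, so Ahnak lay between Mki67 and Son.

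The genes whose products are related to AHNAK or known to bind it were looked up as well, beside the 4.71% of DRACH A listed over all coding transcripts with a site. Genes without a site are not part of that background, so their counts of 0 cannot be compared with it. The paralogs Ahnak2 and Prx, which encodes the Schwann cell protein periaxin, had 0 sites among 99 and 62 DRACH A, and in Ahnak2 the next 75 nt were repeated for 37 of the 99. Of the partners, Anxa2 (annexin A2) had 4 of 40 DRACH A listed (10.0%, 3.96 to 23.1) with a median score of 0.613, and S100a10, its light chain, had 1 of 14 (7.14%, 1.27 to 31.5) with a score of 0.638. Both intervals included the background share. Dysf (dysferlin, of membrane repair), Myof (myoferlin, its relative), Plcg1 (a phospholipase C) and Cacnb2 (a calcium channel subunit) had 0 sites among 154, 165, 93 and 82 DRACH A. Without expression values, a gene with no site cannot be told from a gene too low in RNA for sites to be called.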

How the data were processed

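miCLIP2 reads of the 3 replicates were mapped by the authors to GRCm38 with STAR 2.7.3a (unique hits only), sorted with SAMtools 1.9 and freed of duplicates with UMI-tools 1.0.0; bedtools 2.27.1 is also named in the submitters' processing notes. Peaks found in several replicates were scored by m6Aboost. The deposited values are prediction scores from this model for sites above 0.5, in 1 list over all replicates, with no counts.

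Positions are 1-based on GRCm38, with genes from GENCODE M21 (the study used a later release of the same build). All 19301 positions were A. Each coding gene was read on its longest-CDS transcript. DRACH A were searched on the spliced sequence, the 21 and 75 nt windows were compared by exact match, and shares have 95% Wilson intervals. Scripts used Python 3.11.15, NumPy 2.4.6, SciPy 1.17.1 and matplotlib 3.10.9 and were tested on simulated data. Alternatives covered score minima, motif, transcript and window. Named were Ahnak, the leading genes by sites and by sites in 1 exon, paralogs, partners, and the extreme, non-DRACH, outlying, clustered and repeated sites. Ahnak and these lists were chosen with earlier results of these data known, and the 75 and 77 nt measures were chosen after seeing the data. The 3 replicates gave no separate values, so p-values were not computed.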

Additional observations from a re-analysis of the deposited data

How the results depend on the processing

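The list holds no value per replicate, so no replicate could be left out. No paired analysis was possible because the 3 samples belong to 1 group and share 1 list. Of 23 alternatives, 13 left the value within 1.5 times for the site count or within the 95% interval for the other results, and 10 moved it. With a minimum score of 0.7, the Ahnak site count was 38, the DRACH share 100%, the share of Ahnak DRACH A listed 9.29%, its background 2.88% and the density 2.10 sites per kb. With a minimum of 0.9, 4 sites were left. With RRACH as the motif the share was 88.1%, and with the start read as 1-based the DRACH share was 0%. Over genes with 10 or more sites the background was 10.9%. In windows of 31 nt, 22.4% of sites (15 of 67) lay in sequence repeated in the transcript, and over the 75 nt after the site, an alternative added after seeing the data, 0% did; with the same 75 nt rule 19.3% of DRACH A were listed, and with 77 nt, also added later, 19.2%. The CDS share was 97.0% in both other ways to choose the transcript. Depth at a site is unknown, so the list cannot separate an unmodified A from an A with too few reads.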
